A study of Mus musculus with 16 samples.

Results

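Open chromatin and acetylated chromatin were compared in 1 cell state, late Th2 cells that kept Bcl11b (late WT), using 4 of the 16 libraries of the series: 2 lists of H3K27ac islands and 2 lists of DNase islands. The 4 libraries were chosen by their titles. They came from CD4 T cells of C57BL/6 mice with floxed Bcl11b alleles and a Cre recombinase that 4-hydroxytamoxifen (4-OHT) activates. The cells were grown for 4 days under Th2 conditions, rested for 1 day in medium with IL-2 and grown for 4 more days under Th2 conditions, and late WT cells received no 4-OHT. Late KO cells had the same schedule with 4-OHT in the second culture, while early WT and early KO cells had only the first 4 days, without and with 4-OHT. All groups carry the floxed alleles and the Cre. As no WT library had 4-OHT, loss of Bcl11b and exposure to 4-OHT cannot be told apart. The labels name naive CD4 T cells as the starting population and CD4+CD44high as the sorting condition, which was left as stated. Whether the replicates are separate cultures or animals is not said, and the spread between lists may be technical. What drives the Cre is not stated. Cell identity was not checked at marker genes, because no gene annotation of the build of the lists (mm9) was at hand.

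H3K27ac is an acetyl group on lysine 27 of histone H3, placed by the acetyltransferases p300 and CBP on the nucleosomes beside active promoters and enhancers. DNase I cuts where nucleosomes have been displaced, usually by bound transcription factors, so a hypersensitive site marks the regulatory element itself and the acetylation marks the nucleosomes around it. Open sites without the mark are also well known, among them insulators bound by CTCF and elements held in a silent or poised state, and in T helper cells many enhancers are opened early by lineage factors such as GATA3 and STAT6.

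The deposited lists hold islands, which are runs of enriched 200-bp windows joined across short gaps, each with a score from the authors' peak caller. Here a site is a stretch of merged DNase islands found in both late WT DNase lists, and a region is the same for H3K27ac. A site is inside if a single region holds all of it, at the edge if it overlaps a region only in part or bridges several, and outside if it overlaps none. The 2 DNase lists held 27416 and 36963 islands and gave 26222 sites with a median width of 1800 bp. The 2 H3K27ac lists held 26611 and 30676 islands and gave 25624 regions with a median width of 3000 bp. The H3K27ac lists shared 76.5% of the windows covered in either, and the DNase lists shared 52.6%. The DNase lists differed mainly in length, with 9924 stretches in replicate 2 alone and 591 in replicate 1 alone. Borders differed by a median of 200 bp between replicates in both assays, with no shift to one side (median shift 0 bp). No DNase list held an island on chromosome Y, whereas all 8 H3K27ac lists did, so chromosome Y was left out here. No read numbers came with the lists, the depth is therefore unknown, and a missing island says only that the list does not hold one.

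Most open sites of late WT cells lay in acetylated chromatin. Of the 26222 sites, 16912 (64.5%) were inside a region, 4891 (18.7%) were at the edge and 4419 (16.9%) were outside. Regions covered 4.14% of the 200-bp windows up to the last island of each chromosome, and sites covered 2.02%, which is the background for these shares. Of the open windows 84.0% were acetylated, and of the acetylated windows 41.0% were open. These windows follow the merged outlines, so a window counted as open or acetylated may be covered by 1 list only. Sites covered 53.2 Mb, against 44.7 and 52.4 Mb for the single DNase lists. With single lists, DNase replicate 1 had 66.9% of its islands inside the islands of H3K27ac replicate 1 and 67.1% inside those of replicate 2. DNase replicate 2, the longer list, had 60% and 61.3% inside. The share outside was 17.5% and 14.1% for DNase replicate 1 and 27.6% and 23.4% for DNase replicate 2, so the longer list had the larger outside share with either H3K27ac list. Stretches in 1 DNase list alone were mostly outside in either case, in 57.4% of the 9924 of replicate 2 (median width 800 bp) and 59.9% of the 591 of replicate 1 (1400 bp).

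**Figure D1:**
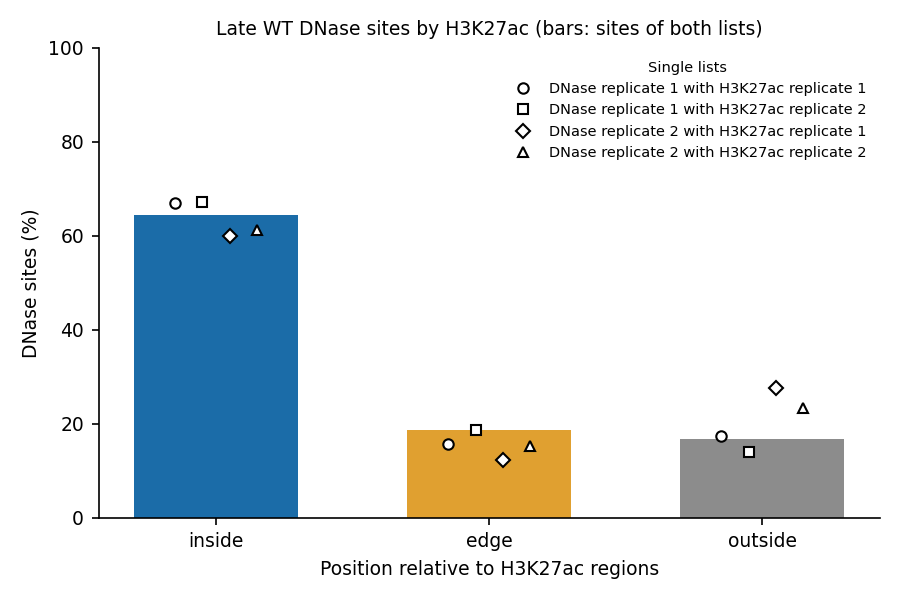
Share of late WT DNase sites (%) that lie inside, at the edge of or outside H3K27ac regions. Bars give the 26222 sites found in both DNase lists against regions of both H3K27ac lists (64.5%, 18.7% and 16.9%), and points give the 4 pairings of 1 DNase list with 1 H3K27ac list, where inside shares run from 60% to 67.1% and outside shares from 14.1% to 27.6%.

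Most edge sites lay largely in acetylated chromatin. Of the 4891 edge sites, 4641 (94.9%) had at least 50% of their width in H3K27ac, and the median edge site had 81.8% of it. Of the edge sites 3498 (71.5%) crossed 1 border of 1 region, 1351 (27.6%) held a whole region within them, and 42 bridged 2 or more regions. Sites reached beyond the lower coordinate alone in 2095 cases and beyond the higher coordinate alone in 2143, by a median of 400 bp on either side, and 64.9% of all borders crossed were crossed by up to 400 bp. Between replicates the borders of the same DNase island differed by 200 bp at the median and by 1000 bp at the 90th percentile. The median reach of edge sites, 400 bp, lay between these values. Taken as stretches that both DNase lists cover, 79.7% of sites were inside and 3.87% at the edge, and 16.4% were outside.

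DNase coverage changed sharply at the border of acetylated regions. Within 1 kb inside the border 33.5% of windows were open, and within 1 kb outside it 5.34% were. The share was highest 1 to 2 kb deep (49.6%), was 47.2% at 2 to 5 kb and fell to 40.9% more than 5 kb deep. Outside it was 1.07% at 1 to 2 kb, 0.700% at 2 to 5 kb, 0.602% at 5 to 10 kb, 0.496% at 10 to 50 kb and 0.0762% beyond 50 kb. Both DNase lists gave this order inside, with 27.5% and 31.2% of windows open within 1 kb inside the border and 43.5% and 47.9% open at 1 to 2 kb. Just outside the border the lists gave 3.51% and 3.43%.

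**Figure D2:**
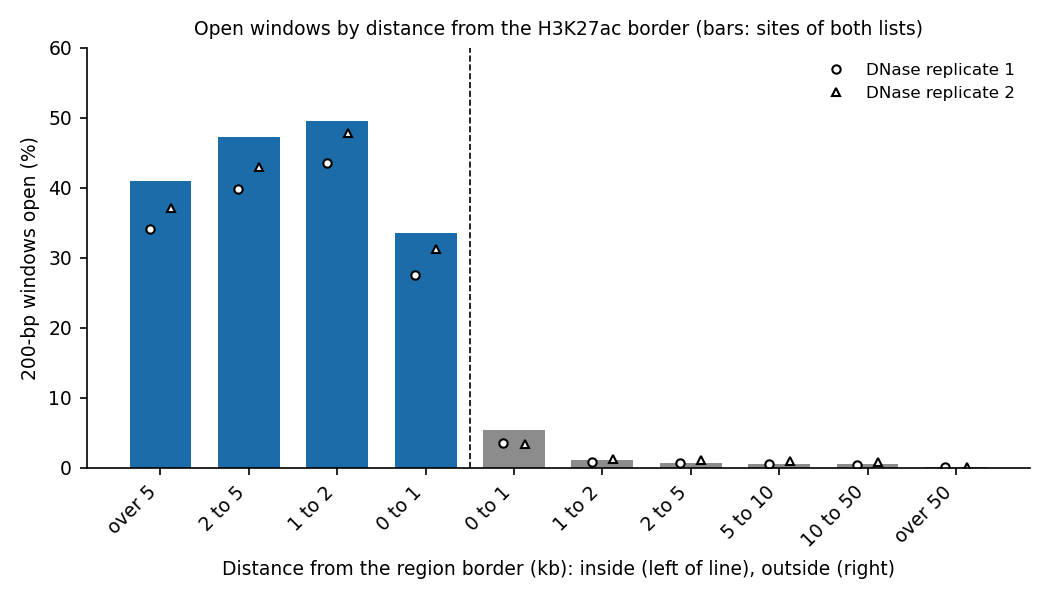
Share of 200-bp windows (%) that are open in late WT cells against their distance in kb from the border of the nearest H3K27ac region, inside it to the left of the dashed line and outside it to the right. Bars are sites of both DNase lists, circles and triangles single lists, and the share drops from 33.5% in the last 1 kb inside to 5.34% in the first 1 kb outside.

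Within regions the place of the open windows depended on width. In regions of 2 to 4 kb, cut into 10 equal parts, 62.9% of the length of the 2 central parts was open and 20.4% of the 2 outermost. Regions of 4 to 8 kb had 55.7% and 14.9%. In regions over 16 kb the profile was flat except at the borders, with 39.7% open at the centre, 41.2% in the parts next to the outermost and 25.3% in the outermost. A site as wide as the median can only lie near the middle of a 3000-bp region, so the profile of narrow regions is partly set by the widths. Of 1560 gaps of up to 1 kb between neighbouring regions, 133 (8.53%) overlapped a site, and sites covered 5.16% of their length. Longer gaps held a site more often, 29.4% of those of 10 to 50 kb and 49.5% of those over 50 kb, but were open over less of their length, 1.12% and 0.229%.

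The position of a site went with its score. Sites were put into 5 equal groups by the mean percentile of their score in the 2 lists, the percentile being the rank of an island within its own list. Among the lowest-scoring 5245 sites 42.7% were outside and 44.5% inside. The outside share was 24.7%, 12.5% and 3.85% in the next groups and 0.591% in the highest, where 79.4% were inside. Scores rise with width, and the median site was 1200 bp in the lowest group and 2600 bp in the highest. Among sites of 800 to 1000 bp alone, the outside share was 47.7% in the lowest group (1192 sites) and 5.41% in the highest (185 sites). These are descriptions of sites that share the same libraries, and no test was run over sites.

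**Figure D3:**
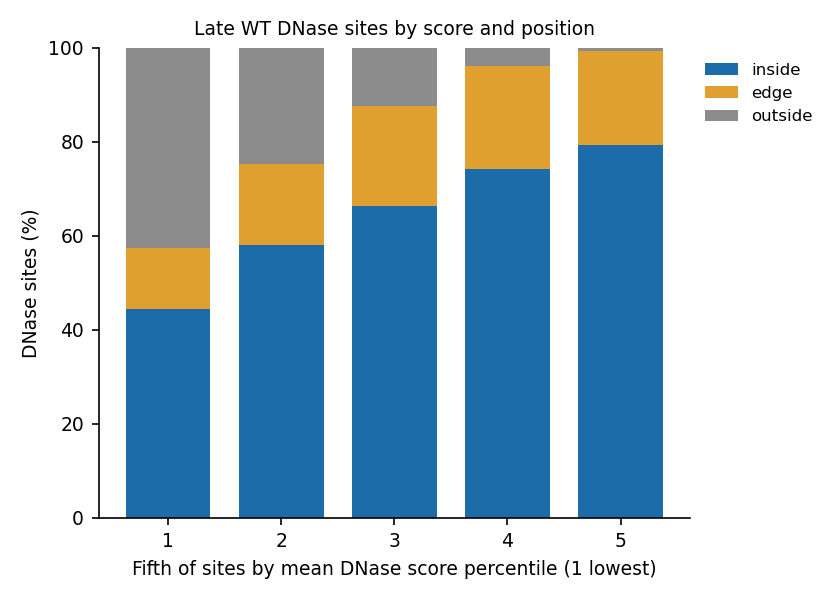
Late WT DNase sites in 5 equal groups by mean score percentile (1 is the lowest), with the share (%) inside, at the edge of and outside H3K27ac regions as stacked bars. The outside share goes from 42.7% in group 1 to 0.591% in group 5.

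The 4419 outside sites were narrow and low-scoring. Their median width was 1200 bp and their median score percentile 30.8, against 1800 bp and 64.2 for inside sites and 2400 bp and 62.2 for edge sites. Of them 1024 overlapped an island of 1 H3K27ac list and 3395 an island of neither. By distance to a region, 177 (4.01%) were within 1 kb and 987 (22.3%) within 5 kb. The median was 16.6 kb, and 921 (20.8%) were more than 50 kb away. Little of the genome lies near a region, with 243679 windows within 1 kb outside one and 8349111 beyond 50 kb. Per window, sites of any class were denser near regions, with 1.07% of windows open at 1 to 2 kb and 0.0762% beyond 50 kb. Sites that overlap a region are not outside sites by definition. Of the 3395 sites with no acetylation in either late WT list, 2412 (71.0%) had none in any of the 8 H3K27ac libraries. Of these, 1940 (57.1% of the 3395) were also open in both early WT lists. By the choice of these sites the late WT lists held none, so only the early WT, early KO and late KO lists bear on the 2412. Among the 3395 sites, 5.33% had H3K27ac in both lists of early WT, 12.9% of early KO and 9.07% of late KO. Among all late WT sites the shares were 76%, 81.8% and 83.5%. Both early WT lists were open at 82.0% of the 3395 and at 92.4% of all sites. The median distance to the next site was 13.8 kb for outside sites, 13.0 kb for edge sites and 7.4 kb for inside sites.

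The highest-scoring sites without acetylation in either late WT list were open in all 8 DNase libraries. The first lay at chr8:108861001-108863000 (mm9), 75.6 kb from the nearest region, with islands covering 0.8 and 2.0 kb in the late WT DNase lists and a mean score percentile of 94.5. Only late KO replicate 2 of the H3K27ac libraries had an island there, over 0.8 kb. The second, chr1:24619401-24620200, was covered over the same 0.8 kb in each of the 8 DNase lists and had no H3K27ac island in any library. Of all late WT sites, 209 (0.797%) were likewise covered whole in all 8 DNase libraries. The site at chr6:144752601-144753400 was covered over 0.6 to 0.8 kb in all 8 DNase lists, with H3K27ac over 0.8 kb in early KO replicate 1 alone. The fourth, chr11:118913001-118916400, was the exception in place and began 0.4 kb from a late WT region. It had no acetylation in early WT or early KO and was acetylated over 2.2 and 2.6 kb in the late KO libraries. Late WT acetylation was absent, and late WT DNase islands were present, by the choice of these sites. Only the early WT, early KO and late KO lists bear on their openness elsewhere. The H3K27ac islands at the sites on chromosomes 8 and 6 were also in KO libraries, each in a single library. The fifth, chr9:108101801-108104000, lay 11.6 kb from a region and had no H3K27ac in any library, with DNase over 2.2 and 0.6 kb in late WT. Openness in every group was common at such scores. All 31 outside sites of the highest score group were open in both lists of early WT, early KO and late KO. Whether openness at these sites exceeds their general read coverage was not tested.

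Among inside sites the highest scores belonged to places covered over all or nearly all of their width in every library. The top 5 were chr17:39979801-39985800, chr11:3026801-3100200, chr2:98506201-98507600, chrX:166426401-166439200 and chr2:98502201-98503200, with mean percentiles from 99.987 to 99.999. The sites on chromosomes 17 and 2 were covered over their full width in all 16 libraries of both assays. The stretch on chromosome 11 was a single DNase island of 73.0 and 73.4 kb in the 2 late WT lists, and a single H3K27ac island covered the same 73.4 kb in both. In all, 130 sites (0.496%) were covered whole in all 16 libraries. No control library was used here, and whether these stretches carry acetylation or openness beyond their general read coverage was not tested. Without the 2 stretches that were open over more than 50 kb, on chromosomes 11 and 1, the inside share was 64.5% as before. So few sites could not move it visibly, and the check did not cover the 130 sites as a set.

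Acetylated regions held 1 open site in most cases, and more than 1 mostly when they were wide. Of 25624 regions, 16485 (64.3%) overlapped exactly 1 site, 1607 (6.27%) overlapped 2, 365 overlapped 3, 107 overlapped 4 and 102 (0.398%) overlapped 5 or more, while 6958 (27.2%) overlapped none. Of the 2181 regions with 2 or more sites, 126 were 2 to 4 kb wide and 1 was narrower. The mean was 0.440 sites in regions of up to 1 kb, 0.601 at 1 to 2 kb, 0.730 at 2 to 4 kb, 0.944 at 4 to 8 kb, 1.55 at 8 to 16 kb and 3.15 over 16 kb. Per length the order was the opposite, from 4.96 sites per 10 kb in the narrowest class to 1.20 in the widest. The share of region length that was open varied less, from 37.4% over 16 kb to 45.5% at 1 to 2 kb. In the 4 pairings of single lists, where neighbouring islands are not joined by the other list, H3K27ac islands over 16 kb overlapped 3.56 to 4.28 DNase islands each.

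**Figure D4:**
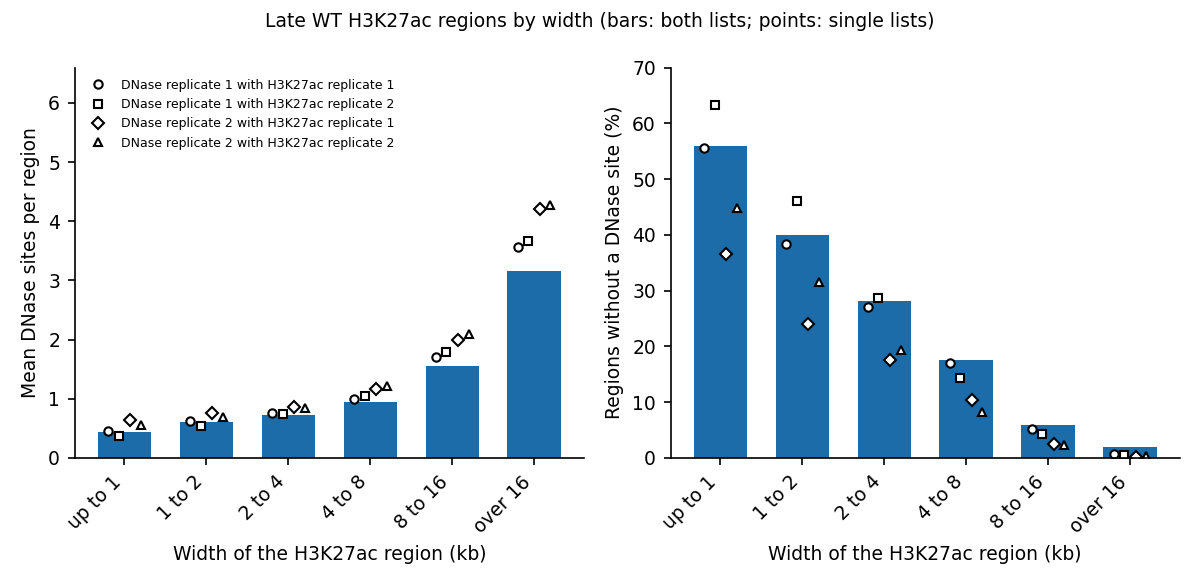
Late WT H3K27ac regions by width in kb: the mean number of DNase sites per region (left) and the share of regions without a site in % (right). Bars are regions and sites of both lists, points the 4 pairings of single lists, and from the narrowest to the widest class the mean goes from 0.440 to 3.15 and the share without a site from 56.0% to 2%.

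The region with the most sites was chr2:11077201-11150800, 73.6 kb wide, with 12 sites that covered 36.2 kb. Its DNase coverage was 28.8 and 35.0 kb in late WT and 29.2 and 42.4 kb in early WT. Early KO had 20.6 and 30.8 kb, and late KO 11.6 and 10.2 kb. The late KO DNase lists were also the lowest in total, with 25.9 and 26.2 Mb covered in the genome against 31.3 to 66.8 Mb in the other 6. Its H3K27ac coverage stayed between 70.4 and 73.6 kb in all 8 libraries. The regions at chr13:51817401-51899400 (82.0 kb) and chr16:10651601-10708600 (57.0 kb) held 10 sites each, and those at chr12:106223201-106261400 (38.2 kb) and chr15:66593401-66667200 (73.8 kb) held 9 each. The region on chromosome 12 had 9 sites in 38.2 kb, the narrowest of these 5.

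Width alone did not fix the number of sites. The widest region, chr17:51889801-51977600, spanned 87.8 kb and held 6 sites over 33.4 kb. A site can join several islands of the 2 lists, and the single DNase lists held 8 and 8 islands in this region. DNase islands there covered 29.2 and 28.2 kb in late WT against 4.4 and 5.6 kb in late KO, while H3K27ac covered 87.8 and 87.4 kb against 87.4 and 81.4 kb. In the whole genome the late WT DNase lists covered 44.7 and 52.4 Mb and the late KO lists 25.9 and 26.2 Mb. The next, chr14:54776801-54860800 (84.0 kb), also held 6 sites, over 39.4 kb, with 9 and 9 islands. At chr2:57975001-58050800 (75.8 kb) 6 sites covered 45.4 kb, the largest open length among the 5 widest, with 11 and 9 islands. The 38.2-kb region with 9 sites had 9 and 10 islands, so it was closer to these by islands than by sites. The region with 12 sites had 13 and 14. The fifth, chr12:74980201-75056000 (75.8 kb), held 8 sites over 22.2 kb, and was acetylated over 74.6 and 75.0 kb in late WT and over 59.6 and 60 kb in early WT. Its H3K27ac islands covered 70.4 and 65.8 kb in late KO and 53.4 and 51.0 kb in early KO. As these regions were picked for their width in late WT, the differences are descriptions and were not tested.

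Regions without an open site were narrow and low-scoring. Their share fell with width, from 56.0% of regions of up to 1 kb through 39.9%, 28.1%, 17.5% and 5.91% to 2% of those over 16 kb (12 of 600). For H3K27ac islands over 16 kb of single lists it was 0.214% to 0.641%. Their median width was 2400 bp and their median score percentile 27.1, against 3200 bp and 66.1 for regions with a site. Score and width went together but were not the same: among regions of 2 to 4 kb the 3678 with the lowest scores lacked a site in 61.1% of cases, the middle 3678 in 21.3% and the 3678 with the highest scores in 2.04%. Among regions of 4 to 8 kb the shares were 46.2%, 5.82% and 0.435%. Scores were ranked within each width class, and narrow regions score lower. The 226 highest-scoring regions of up to 1 kb had a median percentile of 36.2 and lacked a site in 42.9% of cases, and the 1997 highest-scoring of 1 to 2 kb had 56.7 and 14.7%. At 2 to 4 kb the lowest-scoring regions had a median percentile of 24.96 and the middle ones 52.3, so the fall with width is not a comparison at like score. Some wider groups lacked a site more often than narrower ones. The lowest-scoring of 4 to 8 kb (median percentile 45.1) lacked one in 46.2% of cases, against 21.3% for the middle ones of 2 to 4 kb (52.3). The lowest-scoring over 16 kb (93.7) lacked one in 6%, against 0.166% for the middle ones of 8 to 16 kb (90.7). The former included regions without a site at percentiles as low as 35.0, so neither pair compares width at like score.

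List length entered this count as well. Of the 6958 regions without a site, 2724 (39.1%) had an island in DNase replicate 2 alone, 145 (2.08%) in replicate 1 alone and 11 an island in each list that did not meet, which leaves 4078 (15.9% of all regions) with no DNase island in either late WT list. In the 4 pairings of single lists, 17.7% to 34.2% of islands had none. Regions without a site lay a median of 11.2 kb from the nearest site, and 188 (2.70%) had one within 1 kb. No DNase island of any of the 8 libraries met 2372 (34.1%) of them. H3K27ac stretches in 1 list only lacked a site in 75.9% of cases for the 4031 of replicate 2 and 78.0% for the 277 of replicate 1.

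A few wide regions without any late WT DNase island stood out. The widest, chr5:54021201-54044200, was acetylated over 22.8 and 23.0 kb in late WT and over 19.0 to 22.6 kb in the other 6 libraries, and no DNase library had an island in it. The second, chr2:179925401-179947400, was acetylated over 18.8 and 17.4 kb in late WT and 22.0 and 20.8 kb in late KO, had no H3K27ac island in the 4 early libraries, and was again open in none of the 8. The regions at chr4:144853401-144872400 (19.0 kb), chr6:90980401-90998600 (18.2 kb) and chr13:63391201-63409000 (17.8 kb) followed. DNase islands were absent from all of these in all 8 libraries, except for 3.2 kb on chromosome 4 in early KO replicate 2. All 5 ranked low for their width, with a mean score percentile of 68.5 for the first and 35.0 to 47.0 for the others, against a median of 93.7 for the 200 lowest-scoring regions over 16 kb.

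The 5 highest-scoring regions without a site all had a DNase island in at least 1 late WT list. The wide regions above were chosen for having none, so this difference follows from the rule. Among all 6958 regions without a site, 4078 (58.6%) had no island in either list. Among the 3678 highest-scoring regions of 2 to 4 kb, 2.04% lacked a site and 0.190% had no island in either list. For the 200 lowest-scoring regions over 16 kb (median percentile 93.7) these shares were 6% and 2.5%. The region at chrX:54461601-54477800 (percentile 93.2) was acetylated over 15.6 to 16.2 kb in all 8 libraries. It was open in both early groups, over 3.4 and 3.8 kb without 4-OHT and 1.8 and 2.8 kb with it. In late WT an island of 0.6 kb stood in replicate 2 alone, and late KO had none. At chr1:108454201-108471400 (percentile 89.5) DNase islands covered 1.8 and 3.2 kb in late WT but did not meet. The region at chr17:81050601-81058400 (percentile 87.8) was acetylated over 7.8 and 7.4 kb in late WT and 7.4 and 6.8 kb in late KO, against 3.0 and 0 kb in early WT and none in early KO, and its only DNase island was 0.6 kb in late WT replicate 2. The regions at chr2:170026801-170033000 (percentile 88.7) and chr15:9549401-9563600 (percentile 87.3) were open over 2.6 and 3.0 kb in late WT replicate 2 and not in replicate 1.

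Late WT sites were next looked up in the other groups, where a site counted as open with an island in both lists. Of all late WT sites 92.4% were open in early WT, 74.3% in early KO and 54.3% in late KO, the group with the shortest DNase lists. The part of list length in these shares was not tested. Inside sites were open in 94.1%, 79.0% and 61.7% of cases, edge sites in 96.2%, 81.8% and 60.3%, and outside sites in 81.9%, 48.0% and 19.4%. Within groups of similar score the classes were closer. In the middle of the 5 score groups, 97.4% of inside and 95.9% of outside sites were open in early WT, and 53.3% and 47.2% in late KO. In the lowest group the late KO shares were 10.5% and 5.32%, and in the highest they were 99.7% of 4164 inside sites and all 31 outside sites.

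**Figure D5:**
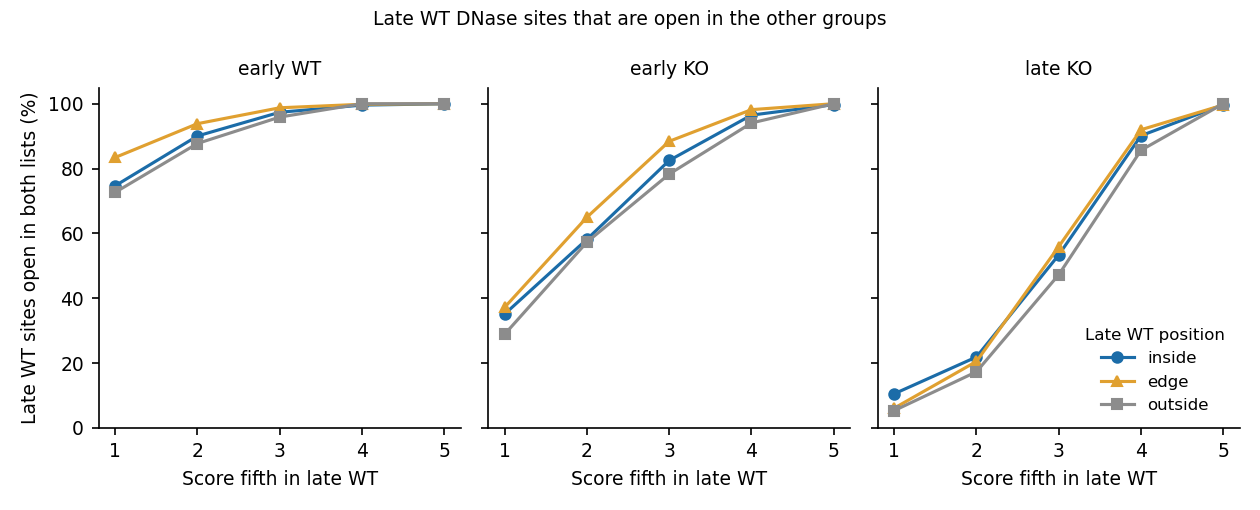
Share (%) of late WT DNase sites that have an island in both DNase lists of early WT, early KO or late KO cells, by score group in late WT (1 lowest, 5 highest) and by position relative to late WT H3K27ac. In group 3 of late KO 53.3% of inside and 47.2% of outside sites are open, against 10.5% and 5.32% in group 1 and 99.7% and 100% in group 5.

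Most late WT sites were acetylated in the other groups too. Of all sites 76% were acetylated in both early WT lists, 81.8% in early KO and 83.5% in late KO. For inside sites the shares were 90.6%, 94.7% and 97.4%, and for outside sites 9.78%, 20.3% and 17.2%. Of all late WT regions 82.4% were acetylated in early WT, 87.7% in early KO and 91.8% in late KO. Regions with a site were acetylated in early WT in 89.0% of cases and in late KO in 96.8%, and regions without one in 64.4% and 78.1%. Of all late WT regions 79.2% were open in early WT, 63.6% in early KO and 47.8% in late KO. Regions without a late WT site were open in early WT in 2503 cases (36.0%), in early KO in 12.6% and in late KO in 2.41%. Among these regions 2018 (29.0%) were both open and acetylated in early WT, 2465 (35.4%) acetylated only, 485 (6.97%) open only and 1990 (28.6%) neither. Of regions with a site, 87.1% were both.

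The inside share was compared with early WT and late KO cells, each DNase list being set against the regions of its own group. It was 70.3% and 63.1% in late WT, 60.3% and 50.2% in early WT and 84.5% and 84.3% in late KO. The groups did not overlap. Late WT exceeded early WT by 11.5 percentage points (66.7 ± 5.15% against 55.2 ± 7.10%, SD, n = 2 each, exact two-sided permutation p = 0.333). Without DNase replicate 2 of early WT the difference was 6.45 points. Against late KO (84.4 ± 0.145%, SD, n = 2) the difference was -17.7 points (exact two-sided permutation p = 0.333), and 0.333 is the smallest p that 2 against 2 allows. The groups also differed in list length, which ran from 37525 and 39736 islands in early WT to 18812 and 17397 in late KO. With each list reduced to its 17397 highest-scoring islands, the inside share was 79.6% and 81.1% in late WT, 80.5% and 69.6% in early WT and 86.0% and 84.3% in late KO. Late WT and early WT then overlapped (difference 5.34 points, exact permutation p = 0.667), and the difference from late KO was -4.76 points (exact permutation p = 0.333). That length is the full list of late KO replicate 2, while the other lists were cut. The edge share was then 13.3% and 12.2% in late WT, 9.08% and 19.9% in early WT, and 6.55% and 7.73% in late KO. The outside share at that length was 7.05% and 6.77% in late WT, 10.5% in both early WT lists, and 7.48% and 8.01% in late KO. The share of regions without a site was 27.2% in late WT, 19.5% in early WT, 35.6% in early KO and 52.4% in late KO, in the reverse order of the number of sites of both lists (26222, 33580, 23231 and 15128).

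The X chromosome had the lowest outside share and the highest share of regions without a site. The outside share was 11.5% on X (454 sites) and highest on chromosome 1 (20.9% of 1761), and the inside share was highest on X (71.6%) and lowest on chromosome 18 (58.5%). Regions without a site made up 38.6% of the 601 regions on X and 24.3% (chromosome 5) to 30.2% (chromosome 12) on the autosomes. No test was run over chromosomes.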

How the data were processed

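H3K27ac ChIP-seq and DNase-seq lists of 16 libraries were used, 2 per assay and group, with 4 late WT libraries at the centre and groups taken from the titles. Per the submitters' processing notes, CASAVA 2.18, Bowtie2 and SICER 1.1 were used on mm9, with no role or order given. Each deposited list holds chromosome, start, end and a score per island, the authors' own value, which served only to rank islands within a list. Lists are per library. Read depth, control libraries and duplicate rates are not given in the sources used here. All island widths are multiples of 200 bp, and the shortest gap between islands is 600 bp, so shorter gaps are joined and fine structure is lost.

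Sites and regions were merged islands (overlapping or touching) found in both lists of a group, and overlap meant at least 1 bp. Positions are printed from 1. Named positions were the 5 first by width, by number of sites or by mean score percentile in each of 6 sets (widest regions, regions with most sites, widest regions without a DNase island in either list, highest-scoring regions without a site, highest-scoring sites without an island in either H3K27ac list, and highest-scoring inside sites). The members, lists and definitions were chosen with earlier results of these data known. The gene table at hand was of GRCm38, so no gene or sequence was assigned by coordinate. Chromosome Y was left out after the lists were seen. The only tests were exact two-sided permutations of inside shares over libraries. Same-numbered replicates share only a number. Interval code was tested on simulated intervals (575 checks against brute force, 0 wrong). The interval work used numpy 2.4.6 and pandas 2.3.3 under Python 3.11.15, and plots used matplotlib 3.10.9. Alternatives were other definitions of site, region and class, the upper 50% of lists by score, lists of equal length, islands up to 1 kb apart merged, a replicate block and each library left out.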

Additional observations from a re-analysis of the deposited data

How the results depend on the processing

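Of 120 values under other settings, 81 stayed within 1 SD of the 4 pairings of single lists or, for differences between groups, kept their sign, and 39 moved by more. Differences between groups were checked for sign only, so none could count as moved, and all of them are among the 81. All 39 are among the values held to the SD, so the share that stayed is lower among those values. The 81 also include settings that could hardly change a value, such as the replicate block and the removal of the 2 stretches over 50 kb. No difference between groups changed sign. With stretches covered by both DNase lists, 79.7% of sites were inside and 3.87% at the edge, with 3.78 sites per region over 16 kb. With islands of either DNase list, 56.5% were inside, 15.1% at the edge and 28.5% outside, 15.9% of regions had no site, and regions held 1.03 sites on average and 3.80 over 16 kb. With stretches covered by both H3K27ac lists 53.0% were inside and 29.8% at the edge, and with islands of either list 34.2% of regions had no site. The upper 50% of the DNase lists gave 75.0% inside, 4.19% outside, 54.4% of regions without a site, 0.502 sites per region and 1.99 over 16 kb. The upper 50% of the H3K27ac lists gave 48.1% inside, 10.7% at the edge, 41.3% outside, 5.25% of regions without a site and 1.18 sites per region. Counting a site as inside with at least 50% of it acetylated gave 82.2% inside and 0.953% at the edge, and asking for 200 bp to both borders gave 53.4% and 29.8%.

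With each late WT library left out in turn, the inside share was 59.0% to 70.3%, the edge share 9.36% to 27.6%, the outside share 13.3% to 27.6%, the share of regions without a site 16.5% to 34.7%, the mean number of sites per region 0.744 to 1.05 and that over 16 kb 3.20 to 4.12. The outside share of 27.6% and the share without a site of 16.5% came without DNase replicate 1, and the edge share was 9.36% without DNase replicate 1 and 12.1% without DNase replicate 2. The inside difference from early WT was 6.45 to 16.5 points and that from late KO -21.3 to -14.0 points over all libraries left out. Pairing same-numbered libraries as a replicate block leaves the differences of 11.5 and -17.7 points unchanged by construction. It altered only the p (exact permutation p = 0.5, the smallest that 2 pairs allow). With chromosome Y kept, 27.2% of regions had no site. List length and unknown depth limit all outside shares and all counts of regions without a site.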

Other observations

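Chromosome Y was seen in 1 assay only. The late WT H3K27ac lists shared 12 regions there, 89.8 kb in all with the widest at 28.0 kb, and each of the 8 H3K27ac lists of the series held 11 to 16 islands on it. None of the 8 DNase lists held any. The cause was not tested, and the regions were left out of the shares above.

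The widest DNase stretches coincided with H3K27ac to different degrees. The stretch at chr11:3026801-3100200 was covered over at least 90% of its 73.4 kb in all 8 DNase and all 8 H3K27ac lists. The stretch at chr1:90108001-90167000, 59.0 kb wide, was covered to that extent in 7 DNase lists and in 2 H3K27ac lists, and late WT regions of both lists covered 42.4 kb of it.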
